A study of Homo sapiens with 12 samples.

Results

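The regions described here are the broad H3K9me3 peaks beside the centromeres of the 5 acrocentric human chromosomes. A peak belonged to the set if its midpoint lay in 1 of 5 hg19 windows, set in whole Mb: 19 to 24 Mb of chromosome 13, 19 to 24 Mb of chromosome 14, 20 to 25 Mb of chromosome 15, 9 to 20 Mb of chromosome 21 and 16 to 21 Mb of chromosome 22. The rule used positions alone, and 419 of the 4723 listed H3K9me3 peaks met it. The peaks came from HCT116 cells, an established human colorectal carcinoma line used at passage 19, profiled by ChIP-seq, in which chromatin fragments are pulled down with an antibody and sequenced, for trimethylated lysine 9 of histone H3. The restricted libraries A and B were made after 24 hr in methionine-free RPMI-1640 with serum, a depletion of methionine and of SAM (S-adenosylmethionine, the methyl donor of histone methyltransferases), and the control libraries A and B at 0 hr. Both groups were grown in RPMI-1640 with serum beforehand. No control library was taken at 24 hr, and the effects of restriction and of a day in culture therefore cannot be told apart. The labels do not state whether A and B were separate cultures; the spread between them, which the p-values rest on, may be technical.

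H3K9me3 is laid down by methyltransferases that use SAM, is bound by the HP1 proteins and marks constitutive heterochromatin, the compact, repeat-rich chromatin around centromeres. Acrocentric chromosomes have their centromere close to one end, and their short arms carry satellite repeats and the ribosomal RNA gene arrays, which hg19 leaves largely unassembled. The assembled sequence beside these centromeres is rich in segmental duplications, near-identical copies shared between chromosomes, so that a short read there can often be placed at several loci. The windows of chromosomes 13, 14, 15 and 22 lie at the start of the long arm; that of chromosome 21 also holds an assembled piece of the short arm. The deposited lists were made by aligning reads to a single haploid reference, and how repeated placements were handled is not given in the sources used here.

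The windows held 156 peaks in restricted A and 69 in restricted B, against 97 in control A and 97 in control B. They spanned 181.8 kb in restricted A and 69.6 kb in restricted B, against 100.3 kb in control A and 97.0 kb in control B. The restricted libraries therefore lay on either side of both controls, and the difference did not exceed the spread (mean 125.7 ± 79.3 kb in restricted and 98.6 ± 2.30 kb in control libraries, SD, n = 2 each, exact two-sided permutation p = 1). With 2 libraries against 2, the smallest p this test can give is 0.333, so no single value could pass 0.05. Restricted A had 1.81 times the length of control A, and restricted B had 0.718 times that of control B. A and B were sequenced on different lanes, so these are within-lane values, and they point in opposite directions.

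The number of peaks listed differed between libraries over all chromosomes, at 1880 in restricted A and 674 in restricted B, against 1372 in control A and 797 in control B, while the reads per library ranged between 33503018 and 35736289. The input reads numbered 23523460 for restricted A and 27843707 for restricted B, against 27721656 for control A and 24434844 for control B; restricted A, with the most peaks, had the fewest, and the part of input depth in the number of peaks was not tested. Lengths were therefore also expressed as relative peak density: the percent of a window under peaks over the percent of chromosomes 1 to 22 and X under peaks in the same library, where 1 is the genome average. The 5 windows make up 1.02% of that length. They held 8.30% of the peaks of restricted A (95% Wilson interval 7.13% to 9.63%) and 10.2% of those of restricted B (8.17% to 12.8%), against 7.07% in control A (5.83% to 8.55%) and 12.2% in control B (10.1% to 14.6%). These intervals cover counting error only. The relative density of all 5 windows was 10.1 in restricted A and 9.59 in restricted B, against 6.78 in control A and 10.1 in control B. Control A stood low and the other libraries lay close together, and the groups overlapped (difference 1.40, exact two-sided permutation p = 1). Without control A the difference was −0.24.

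The 5 windows were not alike. Chromosome 13 was nearly bare in every library, with 5 peaks in restricted A and 1 in restricted B, against 4 in control A and 0 in control B. Its relative density was 1.19 in restricted A and 0.615 in restricted B, against 1.05 in control A and 0 in control B, which is near or below the genome average. Chromosome 14 carried 29 and 17 peaks in restricted A and B, against 16 and 22 in control A and B. Its density was 9.66 in restricted A and 12.1 in restricted B, against 8.82 in control A and 14.3 in control B. The 2 libraries of each condition differed more than the group means did, and chromosome 14 was the one window with a lower mean in restricted libraries (difference −0.71, exact permutation p = 1).

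Chromosome 15, whose proximal long arm is known for the duplicated blocks that bound the Prader-Willi and Angelman deletions, carried 26 and 9 peaks in restricted A and B, against 22 and 13 in control A and B. Its density was 10.8 in restricted A and 8.48 in restricted B, against 9.02 in control A and 8.01 in control B. The groups overlapped, since restricted B lay below control A (difference 1.13, exact permutation p = 0.667). Chromosome 21, whose window of 11 Mb is longer than the 5 Mb of the others, carried 71 and 30 peaks in restricted A and B, against 43 and 47 in control A and B. Its density was 14.6 in restricted A and 13.5 in restricted B, against 8.94 in control A and 15.2 in control B, again with control A apart from the rest (difference 1.97, exact permutation p = 1).

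Over all listed peaks, chromosome 22 was the window whose groups did not overlap. It carried 25 and 12 peaks in restricted A and B, against 12 and 15 in control A and B. Its relative density was 8.70 in restricted A and 8.65 in restricted B, against 3.48 in control A and 6.69 in control B. Both restricted libraries lay above both controls (8.67 ± 0.0379 in restricted and 5.09 ± 2.27 in control libraries, SD, n = 2 each, difference 3.59, exact two-sided permutation p = 0.333, the smallest possible, and 1 after Benjamini-Hochberg adjustment over the 5 windows). Among the centromere windows of the other 18 chromosomes, 5.56% had both restricted libraries above both controls and 16.7% had both below. Here it was 1 of 5 windows, a count too small to set apart from those shares.

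The higher density on chromosome 22 was one of share, not of length. The window held 25.3 kb in restricted A and 10.1 kb in restricted B, against 8.30 kb in control A and 10.4 kb in control B, and restricted B lay below control B. Among peaks with a deposited −log10 q of at least 2 the density was 9.74 in restricted A and 6.19 in restricted B, against 4.67 in control A and 7.02 in control B, so that the groups overlapped there too. The same filter parted groups that overlap among all peaks. On chromosome 21 it gave 16.5 in restricted A and 11.19 in restricted B, against 9.62 in control A and 11.12 in control B, and over all 5 windows 11.02 in restricted A and 8.58 in restricted B, against 6.79 in control A and 8.35 in control B. The difference over all windows was then 2.24. At a −log10 q of at least 5 chromosome 14 was the window without overlap, with 3.30 in restricted A and 2.44 in restricted B, against 2.07 in control A and 0.616 in control B. These values stand on 1 peak in restricted A and 2 in restricted B, against 1 in control A and 1 in control B. Which window had its groups apart thus changed with the threshold. Over all listed peaks, the chromosome 22 difference was 1.98 without control A. There the restricted over control ratio of chromosome 22 density was 2.50 between the A libraries and 1.29 between the B libraries. The plot of lengths and densities by window shows both measures side by side.

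**Figure D1:**
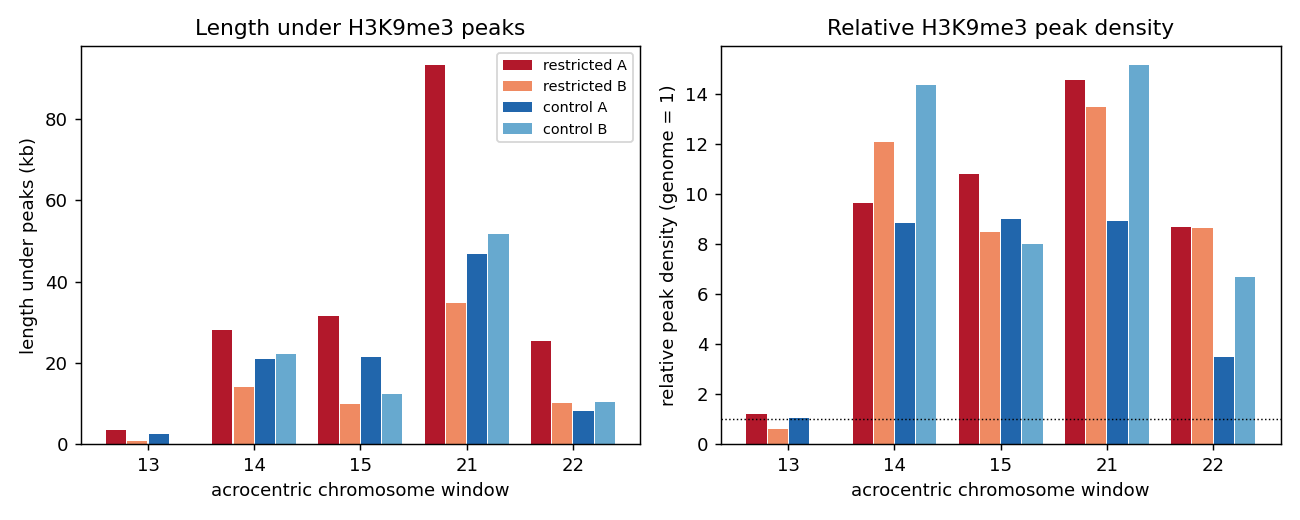
Length under H3K9me3 peaks (left, kb) and relative peak density (right, where 1, the dotted line, is the genome average) in the 5 acrocentric windows; each bar is 1 library, restricted A and B left of control A and B. Restricted A had the longest coverage in every window, such as 93.4 kb on chromosome 21, whereas by relative density only chromosome 22 had both restricted libraries, at 8.70 and 8.65, above both controls, at 3.48 and 6.69.

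On chromosomes 14 and 15 the peaks lay mostly in the part of the window nearest the centromere. On chromosome 14 the first 2 Mb held 97.6% of the peak length in restricted A and 100% in each of the other 3 libraries. On chromosome 15 the first 3 Mb held 90.5% in restricted A and 100% in restricted B, against 95.7% in control A and 100% in control B. On chromosome 22 the peaks fell in 3 separate stretches. The first Mb of that window held 11.7 kb in restricted A and 4.51 kb in restricted B, against 2.27 kb in control A and 2.95 kb in control B. The third Mb held 4.92 and 3.32 kb in restricted A and B, against 3.17 and 3.30 kb in control A and B, and the fifth 7.76 and 2.30 kb in restricted A and B, against 2.86 and 2.66 kb in control A and B. The third Mb was thus covered to a similar length in 3 of the 4 libraries, while in the first Mb both restricted libraries exceeded both controls.

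Chromosome 21 is the window that spans its centromere. No list held a peak in a gap of 3.15 Mb, chr21:11186917-14339099, which divided the window into a short-arm and a long-arm side; this division was made after the values were seen. The short-arm side held 86.8 kb in restricted A and 32.1 kb in restricted B, against 43.4 kb in control A and 50.5 kb in control B. Its relative density was 68.1 in restricted A and 62.7 in restricted B, against 41.6 in control A and 74.3 in control B, and control B was the highest. The groups overlapped, with control A below and control B above both restricted libraries (difference 7.47, exact permutation p = 1). The long-arm side was sparse, at 6.58 and 2.61 kb in restricted A and B, against 3.54 and 1.35 kb in control A and B. There the density was 1.99 in restricted A and 1.97 in restricted B, against 1.31 in control A and 0.765 in control B. Both restricted libraries were higher (difference 0.94, exact permutation p = 0.333), a value that rests on between 2 and 7 peaks per library.

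On the short arm a large part of the peak length lay near the edge of the gap, more so in the A libraries. The last 0.2 Mb held 49.03 kb in restricted A and 11.02 kb in restricted B, against 19.2 kb in control A and 15.2 kb in control B. As a share of the peak length on the short arm this was 56.5% in restricted A and 34.3% in restricted B, against 44.2% in control A and 30.1% in control B. Both A libraries had a larger share there than both B libraries, whichever the condition. In restricted A the stretch between 0.1 and 0.2 Mb from the gap was the densest, with 25.9 kb, against 4.14 kb in restricted B, 5.80 kb in control A and 6.15 kb in control B. In control B the densest stretch lay further off, between 0.4 and 0.5 Mb, with 11.8 kb against 9.07 kb in the last 0.1 Mb. Restricted B held 5.57 kb between 0.4 and 0.5 Mb and 6.88 kb in the last 0.1 Mb.

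**Figure D2:**
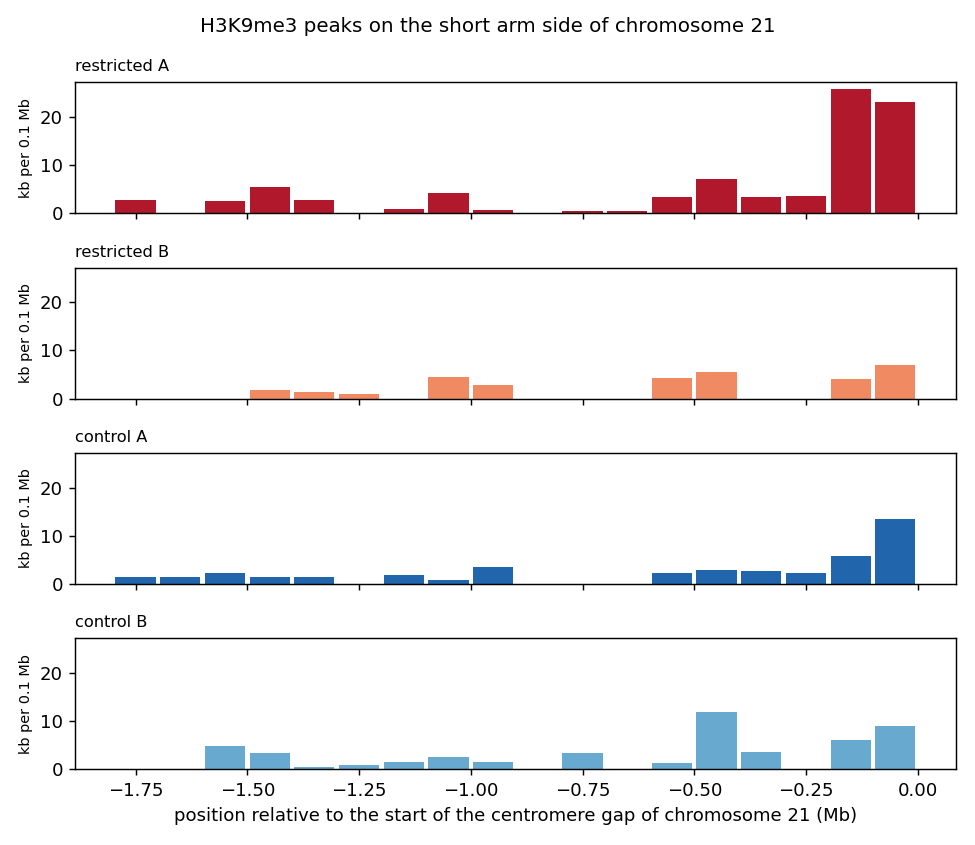
Length under H3K9me3 peaks (kb per 0.1 Mb) on the short-arm side of chromosome 21, by position relative to the start of the centromere gap (0 on the x axis), with 1 panel per library, restricted A and B above control A and B. All 4 libraries have peaks in the last 0.2 Mb before the gap, and restricted A, with 49.03 kb there, stands above the other 3, with 11.02 to 19.2 kb.

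To ask whether the same places were marked, peaks of the 4 libraries within 1 kb of each other were merged, which gave 251 regions. Of these, 19 (7.57%) held a peak in all 4 libraries, 31 in 3, and 162 (64.5%) in a single library. Outside the windows 4.40% of merged regions were in all 4 libraries and 74.7% in a single one. The shared regions were uneven among chromosomes: 10 of 109 on chromosome 21, 6 of 32 on chromosome 22, 2 of 50 on chromosome 15, 1 of 50 on chromosome 14 and 0 of 10 on chromosome 13. Restricted A alone accounted for 77 of the single-library regions, with 60.9 kb of peaks, and restricted B for 16, with 15.3 kb, against 35 in control A, with 20.9 kb, and 34 in control B, with 28.6 kb.

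**Figure D3:**
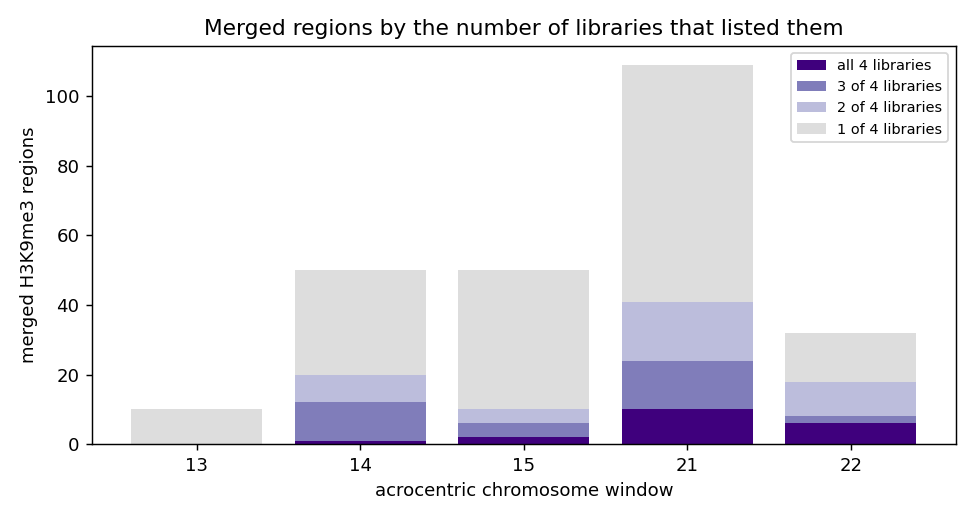
Number of merged H3K9me3 regions in each acrocentric window, stacked by how many of the 4 libraries listed a peak there. Chromosome 21 holds 109 regions, 10 of them in all 4 libraries, whereas chromosome 22 holds 32, 6 of them in all 4, and every one of the 10 regions of chromosome 13 was listed by a single library.

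The widest region common to the 4 libraries was chr21:11059042-11073025, of 13984 bp, near the edge of the gap. Its peaks covered 13.98 kb in restricted A and 3.24 kb in restricted B, against 4.59 kb in control A and 4.33 kb in control B. The authors' fold enrichment, a ratio of pileup (read coverage) to the local background, was at its highest piece 2.87 in restricted A and 2.76 in restricted B, against 2.40 in control A and 2.36 in control B. Restricted A thus joined into 1 peak what the other libraries listed in pieces, and the folds of all pieces lay between 1.998 and 2.87. Such values are the authors' own for each peak, and each depends on the reads and input of its list. The next widest on this chromosome were chr21:10698794-10703288, covered over 2.68 and 1.13 kb in restricted A and B, against 1.13 and 3.05 kb in control A and B, and chr21:11109208-11112315, covered over 2.89 and 1.46 kb in restricted A and B, against 2.97 and 2.21 kb in control A and B.

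On chromosome 22 the widest common region was chr22:20656135-20657882, in the part of the long arm known for the low-copy repeats of 22q11. It was covered over 1.75 kb in restricted A and 1.59 kb in restricted B, against 1.57 kb in control A and 1.68 kb in control B, a nearly equal length. At the next, chr22:18685153-18686300, the fold enrichment was 3.66 in restricted A and 3.59 in restricted B, against 3.48 in control A and 3.55 in control B. All 4 values lay close together. The last of the 3, chr22:18883564-18884304, held the highest −log10 q of the members of restricted A and the next highest in the other 3 lists, at 328 in restricted A and 89.8 in restricted B, against 54.7 in control A and 49.01 in control B.

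That region also separated fold from pileup. Its fold enrichment was 9.995 in restricted A and 2.39 in restricted B, against 2.07 in control A and 2.14 in control B. Its pileup was 492 in restricted A and 685 in restricted B, against 608 in control A and 496 in control B. Restricted A therefore had the highest fold and the lowest pileup, which means that its background estimate at this place was the lowest of the 4.

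The edge of the chromosome 21 gap carried another strong region, chr21:11185999-11186916, singled out here after its values were seen. Its highest −log10 q was 250 in restricted A and 141 in restricted B, against 111 in control A and 94.2 in control B. Another, chr21:9826106-9827532, also chosen after its values were seen, reached a −log10 q of 40.01 (restricted A) and 35.2 (restricted B), against 50.4 (control A) and 31.1 (control B). At the first of these both restricted libraries were above both controls in −log10 q, and at the second they were not. By pileup the groups overlapped at the first. Its pileup was 385 in restricted A and 741 in restricted B, against 613 in control A and 545 in control B. The local background there, taken as pileup over fold, was lowest in restricted A. It was 42.6 in restricted A and 228 in restricted B, against 199 in control A and 181 in control B.

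On chromosome 15 the common regions were chr15:20559908-20564166 and chr15:22460991-22463148. The first was covered over 4.24 kb in restricted A and 1.79 kb in restricted B, against 1.2 kb in control A and 1.51 kb in control B. The second was covered over 1.96 kb in restricted A and 1.51 kb in restricted B, against 2.01 kb in control A and 1.38 kb in control B. The groups were apart in the first and overlapped in the second. The one common region of chromosome 14, chr14:19012677-19013344, lay at the start of its window and its fold enrichment was 2.20 in restricted A and 2.30 in restricted B, against 1.86 in control A and 2.05 in control B.

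Few regions followed the condition. Regions with a peak in both restricted libraries and in neither control numbered 7, 4 of them on chromosome 21, 2 on chromosome 22 and 1 on chromosome 14. Regions in both controls and in neither restricted library numbered 3, 2 on chromosome 21 and 1 on chromosome 14. Over all chromosomes, 2.45% of 3228 merged regions were in both restricted libraries alone and 2.14% in both control libraries alone, and 7 and 3 of 251 are close to those shares. Pairings that cross the conditions were of similar number: 13 regions were in restricted A and control B alone, 9 in both A libraries alone, 4 in both B libraries alone and 3 in restricted B and control A alone.

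The widest region of both restricted libraries alone was chr22:20710061-20715215, covered over 5.16 kb in restricted A and 0.706 kb in restricted B. Next came chr21:10137890-10141229, with 2.14 kb in restricted A and 2.12 kb in restricted B, and then chr21:11147727-11149480, with 1.75 and 0.355 kb in restricted A and B. The remaining regions named by width were chr21:14409827-14410937, with 1.07 and 1.05 kb in restricted A and B, and chr21:9752602-9753266, with 0.470 and 0.665 kb in restricted A and B. Their −log10 q was between 1.18 and 4.74, on both sides of the median over all listed peaks, which was 2.11 in restricted A and 2.17 in restricted B.

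One narrower region of this class, singled out after its values were seen, was strong. At chr22:18688079-18688650 the −log10 q was 191 in restricted A and 41.4 in restricted B. The fold enrichment there was 19.9 in restricted A and 2.91 in restricted B. Its pileup was the lower in restricted A, at 196 against 264 in restricted B. Pileup over fold, an approximate local background, was 9.83 in restricted A and 90.8 in restricted B. Neither control list had a peak there. It lies beside the common region chr22:18685153-18686300, whose fold was nearly equal in all 4 libraries.

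The 3 regions of both controls alone were chr21:9664707-9668901, covered over 1.58 kb in control A and 3.74 kb in control B, chr21:10084993-10087779, over 2.71 and 2.37 kb, and chr14:20070831-20073605, over 2.08 and 1.12 kb. Their −log10 q was between 1.40 and 2.92. The median over all listed peaks was 1.96 in control A and 2.01 in control B, so these lay around the middle of their lists.

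The overlap of peak lengths was low for every pair of libraries. The shared length as a percent of the joint length (Jaccard index) of member peaks was 15.5% between restricted A and restricted B and 18.6% between control A and control B, and pairs across conditions had 16.1% to 19.9%. Over all member peaks, the restricted pair thus lay below every pair across conditions, and the control pair lay within their range. Among member peaks with a −log10 q of at least 5 the index was 15.4% between the restricted libraries and 46.9% between the controls, and 21.6% to 39.6% across conditions, so that there the control pair shared the most and the restricted pair the least. Around the other centromeres the index over all listed peaks, without that filter, was 28.6% between the restricted libraries and 55.3% between the controls. Pairs across conditions had 36.7% to 41.6% there, so the control pair again shared the most and the restricted pair the least.

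Bins of 1 Mb were tested with limma on log2(relative density + 0.1), fitted over 678 bins of all chromosomes. No bin passed a Benjamini-Hochberg adjusted p of 0.05 (0% called; 62 had an unadjusted limma p under 0.05, and the smallest adjusted p was 0.492). The windows held 22 bins with a peak, of which 18 had a peak in at least 2 libraries and were tested. None of these passed, and 2 had an unadjusted p under 0.05. In 5 of the 18 both restricted libraries were above both controls, against a background of 17.3% of all tested bins, and in 0 of the 18 they were below, against 11.9%. The median log2 difference was 0.23 over the bins of the windows and 0.01 over all tested bins.

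The 5 bins with the smallest unadjusted p were also the 5 without overlap in relative density. In chr22:16000001-17000000 the density was 20.1 in restricted A and 19.3 in restricted B, against 4.76 in control A and 9.50 in control B (log2 difference 1.53, SE 0.49, limma adjusted p = 0.492). In chr13:20000001-21000000 it was 1.74 in restricted A and 3.08 in restricted B, against 0 in both controls, but these values stand on 1 peak in each restricted library. In chr21:14000001-15000000, just beyond the gap, it was 6.17 in restricted A and 4.46 in restricted B, against 2.33 in control A and 1.73 in control B. In chr21:15000001-16000000 it was 5.11 in restricted A and 6.67 in restricted B, against 3.74 in control A and 2.60 in control B. Both chromosome 21 bins hold few peaks. The first has 4 and 1 in restricted A and B, against 1 and 1 in control A and B. The second has 3 and 1, against 3 and 1. By length the groups overlapped in both. The first held 3.60 and 1.05 kb in restricted A and B, against 1.11 and 0.539 kb in control A and B. The second held 2.98 and 1.56 kb, against 1.79 and 0.808 kb. In chr22:20000001-21000000 the density was 13.3 in restricted A and 9.80 in restricted B, against 5.998 in control A and 8.55 in control B. By length groups overlapped there, at 7.76 and 2.30 kb in restricted A and B, against 2.86 and 2.66 kb in the controls. The first Mb of the chromosome 22 window had the widest distance between the groups among the bins with peaks in all 4 libraries.

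Pericentromeric H3K9me3 is not peculiar to acrocentric chromosomes, so the windows were set beside those within 5 Mb of the centromere gaps of the other 18 chromosomes (180 Mb). Those windows begin at the gap edges and leave the gaps out. The chromosome 21 window keeps its gap of 3.15 Mb in the divisor, which lowers the acrocentric density. Around the other centromeres the relative density was 4.59 in restricted A and 7.75 in restricted B, against 6.45 in control A and 8.59 in control B. The acrocentric density was 2.19 times as high in restricted A and 1.24 times in restricted B, against 1.05 times in control A and 1.17 times in control B. It was higher in 4 of 4 libraries (mean log2 ratio 0.44 ± 0.48, SD, n = 4, exact two-sided sign-flip permutation p = 0.13, the smallest that 4 libraries allow). The mean log2 ratio was 0.57 higher in restricted than in control libraries, which rested mostly on restricted A (exact permutation p = 0.333, the smallest possible). Being higher in every library depended on the chromosome 21 window. Without it the acrocentric density was 7.59 in restricted A and 7.46 in restricted B, against 5.59 in control A and 7.26 in control B. Only in restricted A was this above the density around the other centromeres. With all 5 windows but lists of equal size, the log2 ratio was −0.37 in control A and the mean was 0.15.

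With the chromosome 21 window included, the higher acrocentric density held for all listed peaks and not for the strong ones. Among peaks with a −log10 q of at least 5 the acrocentric windows were less dense than the other centromere windows in all 4 libraries, with a log2 ratio of −0.49 (restricted A) and −2.31 (restricted B), against −2.13 in control A and −2.27 in control B. Such strong peaks numbered 24 in restricted A and 12 in restricted B, against 16 in control A and 14 in control B, in the acrocentric windows. Around the other centromeres they numbered 78 in restricted A and 85 in restricted B, against 110 in control A and 101 in control B.

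**Figure D4:**
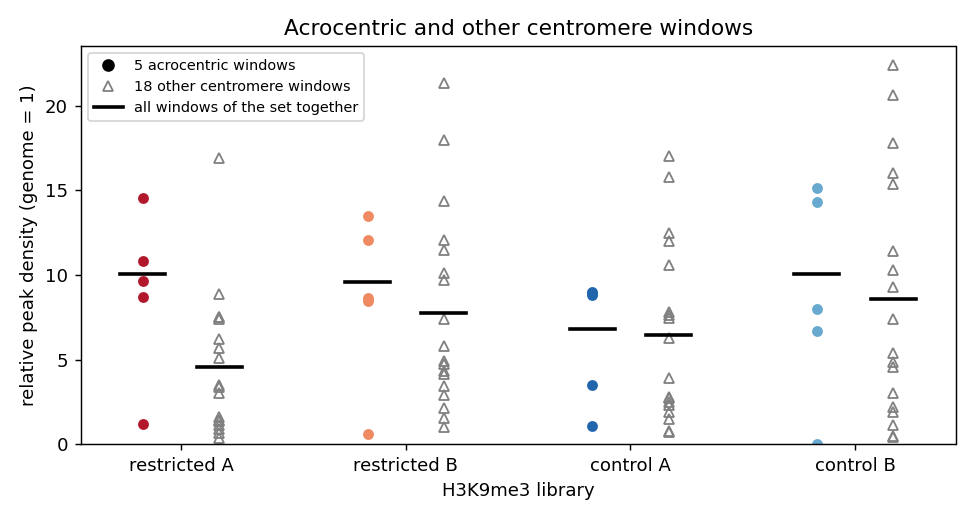
Relative H3K9me3 peak density in each library (restricted A and B left of control A and B) for the 5 acrocentric windows (filled circles) and the windows of the 18 other centromeres (open triangles); the horizontal line is the density of all windows of a set together. In restricted A the acrocentric line, at 10.1, stands well above the other, at 4.59, and in the remaining 3 libraries the lines lie closer and single windows overlap widely.

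Coverage and background differed between libraries in the same places. The median pileup of member peaks was 22.1 in restricted A and 33.8 in restricted B, against 34.4 in control A and 30.1 in control B. Their median fold enrichment was 2.95 in restricted A and 2.47 in restricted B, against 2.50 in control A and 2.65 in control B. Dividing pileup by fold gives an approximate local background. This quotient is not the exact value the caller used, and is least close to it where coverage is low. Its median was 2.94 times the value of evenly spread reads in restricted A and 4.25 times in restricted B, against 4.32 times in control A and 3.89 times in control B. Restricted A was thus the lowest in pileup and in background and the highest in fold.

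A fold enrichment of at least 4 was reached by 19 of 156 member peaks of restricted A and 0 of 69 of restricted B. In the controls it was reached by 0 of 97 in control A and 1 of 97 in control B. Of the 19, 7 lay on chromosome 22 and 5 on chromosome 21. Over all chromosomes it was reached by 278 of 1880 peaks of restricted A and 29 of 674 of restricted B. The controls had 45 of 1372 (control A) and 30 of 797 (control B). The larger number in restricted A was thus not particular to the windows. Around the other centromeres the approximate background was 2.61 times the even value in restricted A and 11.5 times in restricted B, against 6.35 times in control A and 15.8 times in control B. The part of the low background of restricted A in its larger number of peaks was not tested.

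H3K9me1, the monomethylated form of the same lysine, was profiled in 4 further libraries of the same times and letters and offers a readout that played no part in choosing the regions. The H3K9me1 lists omit chromosomes: restricted A lists none of its regions on 15, restricted B none on 22, and control B has regions on 22 alone among the 5. A comparison of 2 libraries with 2 was therefore not possible for any of the 5 windows, and the shares below are given without a test.

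Of the merged H3K9me3 regions on the chromosomes a list covers, an H3K9me1 region touched 111 of 201 (55.2%) in restricted A and 101 of 219 (46.1%) in restricted B, against 28 of 251 (11.2%) in control A and 10 of 32 (31.3%) in control B. By length, H3K9me1 covered 22.2% of the merged regions and 4.84% of the rest of the windows in restricted A, and 15.5% and 9.64% in restricted B. In control A it covered 2.48% of the merged regions and 7.70% of the rest, and in control B 9.17% and 17.3%. In the restricted lists H3K9me1 was thus more frequent on H3K9me3 regions than beside them, and in the control lists less frequent.

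For all merged regions the same order was seen in each window that a list covered. On chromosome 21 H3K9me1 covered 20.8% of the regions against 2.37% of the rest of the window in restricted A and 15.1% against 4.77% in restricted B, and in control A 0.956% against 1.80%. On chromosome 22 it covered 36.5% against 5.58% in restricted A, and in control A 4.88% against 14.8% and in control B 9.17% against 17.3%. On chromosome 14 in restricted B the shares were close, with 17.3% of the regions against 15.02% of the rest. For regions in 2 or more H3K9me3 libraries the order turned round on chromosome 15 in restricted B, with 7.93% of the regions against 9.06% of the rest.

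Both marks of a time and letter were called against one input. Each H3K9me3 list was therefore also set against the H3K9me1 lists of other inputs. Within the windows the share of H3K9me3 peak length under H3K9me1, divided by the share of the whole window, was between 1.59 and 3.88 with restricted H3K9me1 lists of another input and between 0.219 and 0.586 with control ones of another input. The control H3K9me3 peaks, too, had ratios of 3.21 (control A) and 3.71 (control B) with the H3K9me1 list of restricted A. In the rest of the genome, outside all centromere windows, the ratios with lists of another input were 1.64 to 5.12 and 0.231 to 0.551, so the pattern was not particular to the acrocentric windows. Around the other centromeres they were 1.30 to 1.74 with the restricted lists and 0.492 to 1.70 with the control lists, which overlap. The H3K9me1 regions were called at a loose p cutoff of 0.1, and the part of threshold and lane in this difference was not tested. The H3K9me1 A libraries of both conditions were on lane 2, and the B libraries of both were on lane 3.

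**Figure D5:**
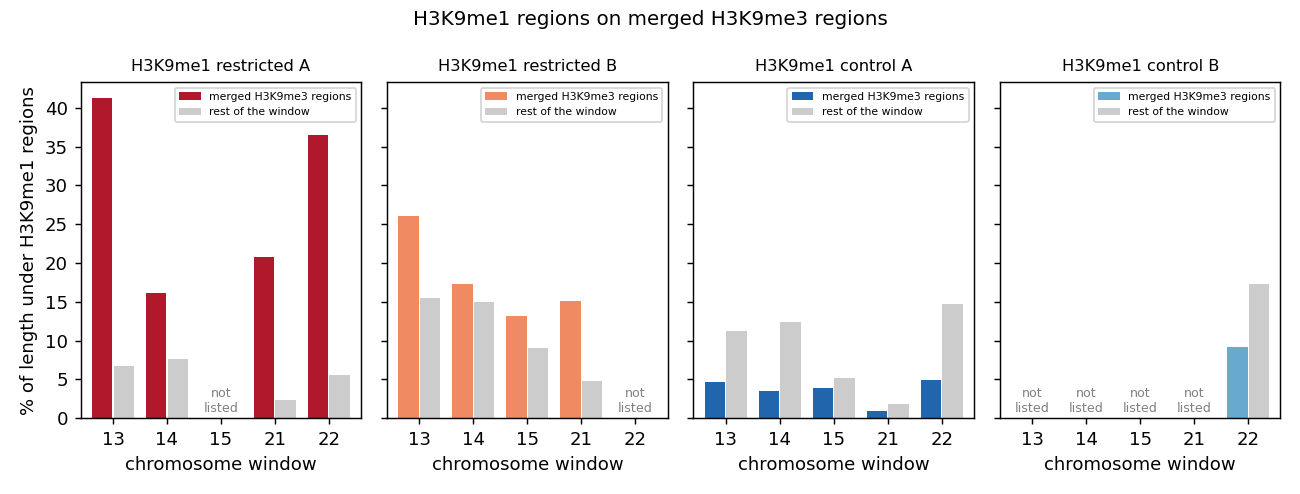
Percent of length under H3K9me1 regions, for the merged H3K9me3 regions (coloured bars) and for the rest of the same window (grey bars), in each H3K9me1 list, restricted A and B left of control A and B. In the restricted lists the coloured bars are the higher ones on every chromosome listed, such as 20.8% against 2.37% on chromosome 21 in restricted A, and in the control lists the grey bars are, such as 17.3% against 9.17% on chromosome 22 in control B.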

How the data were processed

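H3K9me3 and H3K9me1 peak lists of 2 methionine-restricted (24 hr) and 2 control (0 hr) libraries each were used; files of the 4 inputs were not used here. The submitters' processing notes name build hg19, MACS2 2.1.1.20160309, Bowtie2 2.1.0 and SAMtools 1.5. Each library had its own broad peak calls, with the input that shares its time and letter as background, per the file headers: H3K9me3 at q cutoffs of 0.05 (strong) and 0.1 (weak) with all duplicates kept, and H3K9me1 at p cutoffs of 0.0001 and 0.1 with at most 1 read per position. The H3K9me3 coverage thus counts duplicate reads. The deposited pileup is a signal (read coverage), the deposited fold enrichment is a ratio, and the deposited p-value and q-value columns are −log10 values; all are the authors' averages over a broad peak and served to filter peaks and to describe them; set side by side between lists they are descriptions, without a test, since each depends on the reads and input of its list. Per the file headers, H3K9me3 A libraries were on lane 3 and B libraries on lane 2.

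Chromosomes 1 to 22 and X (3035 Mb) were used. Peaks within 1 kb were merged, and presence needed 1 bp. Values of single windows were tested by exact permutation, two-sided, over 6 relabellings. The limma test used 1 Mb bins holding peaks of 2 or more libraries, with limma 3.58.1 (R 4.3.3; trend and robust). Log2 differences on this scale understate changes of sparse bins. Interval code was checked on 300 random interval sets, and the limma step was tested on simulated bins with known changes. The recovery required of the limma step was set for a large change at a small spread. It does not show which changes the test can find at the spread of these bins. Regions were named by rule: per chromosome the 3 widest common regions, the 5 widest restricted-only and control-only regions, and the 5 bins of smallest unadjusted p; exceptions are stated. The windows, regions and comparisons were chosen with earlier results of these data known. No hg19 sequence or gene annotation was used, so regions carry no gene names. Thresholds, list sizes, merging, bins, scaling, a replicate block by letter and the omission of single libraries were tried as alternatives.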

Additional observations from a re-analysis of the deposited data

How the results depend on the processing

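Among the recomputed values of the main results, 93 kept their direction and stayed within their limits, 15 reversed and 15 moved; the 45 recomputed values of the 5 named bins kept theirs. No bin of the windows was called under any alternative, the replicate block (0) and leaving out a library (0 to 0) included. The difference in relative density over all windows (1.40) was −0.26 with the length outside centromere windows as divisor, and −0.24 to 3.05 when 1 library was left out, reversed without control A. Leaving out 1 library gave −0.15 to 0.90 on chromosome 13 (reversed without control B), −3.47 to 2.05 on chromosome 14 (reversed without restricted A, 0.50, and without control B), −0.0339 to 2.28 on chromosome 15 (reversed without restricted A), −1.14 to 5.08 on chromosome 21 (reversed without control A) and 1.98 to 5.19 on chromosome 22, where no alternative reversed it. Chromosome 14 (−0.71) also reversed at a −log10 q of at least 2 (1.29) and of at least 5 (1.53) and when each library kept as many peaks as the shortest list (0.0297). The difference in covered length (27.1 kb) was −29.0 to 83.2 kb and that in peak number (15.5) −28.0 to 59.0, both reversed without restricted A, and that in peak number was −6.00 with lists of equal size. The log2 ratio to other centromeres (0.44) was −0.0290 at a −log10 q of at least 2 and −1.80 at 5, and 0.20 to 0.56 when 1 library was left out. Regions in all libraries (19) numbered 9 where peaks had to cover at least 50% of the region, 7 at a −log10 q of at least 5, and 23 to 31 without 1 library. Restricted-only regions (7) numbered 4 and 1 at −log10 q of at least 2 and 5, and 13 to 84 without 1 library; control-only regions (3) numbered 0 at 5, and 6 to 39 without 1 library. Fewer libraries make these counts larger by construction. With the letter as a replicate block, the density differences were the same as without it (1.40 over all windows), and those in length and number, on the log2 scale, were 0.19 and 0.10. The letters pair libraries by name and lane only; the A minus B deviations of the 2 conditions had a Pearson r of 0.109 across 678 bins, which are not independent.

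With 2 libraries per group the smallest exact p was 0.333. Duplicate reads were kept, so the depth in distinct reads is unknown. Coverage below the threshold was not analysed here, and a missing peak does not show that the mark was absent.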
